A study of Mus musculus with 24 samples.

Results

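Genes that mark the pharyngeal endoderm were followed in tissue of embryos with a Cre deletion of *Tbx1* or β-catenin in the neighbouring mesoderm. The set holds 10 of the 19938 genes measured: *Pax1*, *Pax9*, *Nkx2-1*, *Foxa1*, *Foxa2*, *Shh*, *Epcam*, *Cldn6*, *Krt8* and *Krt18*. They were taken by name as genes of the endodermal epithelium of the pharynx and not by a cut on their values, though earlier results of these data were known. Each was read by 1 probe set. All tissue was dissected at E9.5 (19 to 21 somite pairs) from the arch region that holds the anterior heart field (AHF), and was pooled from several embryos per array. Such a piece holds the mesoderm with the endoderm, ectoderm and neural crest around it.

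Each of the 6 groups had 4 arrays. *Tbx1 LOF* embryos carried Mef2c-AHF-Cre/+ with Tbx1 f/- or Tbx1 f/f. *β-cat LOF* embryos carried Mef2c-AHF-Cre/+ with β-catenin f/f. The rescue embryos were *Tbx1 LOF* with 1 floxed β-catenin allele added, so that they lacked *Tbx1* in the Cre domain as well. Each mutant group had a control group of its own, so the 3 comparisons share no arrays. According to the methods these controls were free of Cre and heterozygous for the floxed alleles (Tbx1 f/+, β-catenin f/+, or both), whereas the labels name wild type and Mef2c-AHF-Cre/+;Tbx1 f/+ littermates, and the sources used here do not settle which they were. The Cre is a mesodermal one, driven by an AHF enhancer of *Mef2c*. The Cre therefore did not target the endoderm. Embryos with Tbx1 f/- also carried 1 null *Tbx1* allele in every tissue, the endoderm included, and how many such embryos went into each pool is not stated.

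The pharyngeal endoderm is the epithelial lining of the foregut between the arches. It folds outwards into pouches that later give rise to organs such as the thymus and the parathyroids, and it sends signals, among them Sonic hedgehog, to the mesoderm of the heart field beneath it. *Pax1* and *Pax9* are paired-box transcription factors of the pouches, *Nkx2-1* is a homeodomain factor of the thyroid and lung primordia, and *Foxa1* and *Foxa2* are forkhead factors that act from early on in endoderm. *Shh* encodes the secreted ligand. *Epcam* and *Cldn6* encode an adhesion molecule and a tight junction protein of epithelia, and *Krt8* with *Krt18* encode the partner keratins of simple epithelia. *Foxa2* and *Shh* are also made in notochord and floor plate, and *Krt8* and *Krt18* are not restricted to endoderm either.

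The promoters of the genes at the ends of the distribution of changes are shown as sequence, because *Pax9* and *Krt8* had the lowest and the highest fold change in *Tbx1 LOF* and *Krt18* is the partner and chromosomal neighbour of *Krt8*. Each window holds 250 bases before and 50 bases after a start site annotated by RefSeq (GRCm38.p6) and is written 5′ to 3′ on the strand of the gene. Such windows were given for 9 of the 10 genes, 11 in all. Capitals mark matches to the TATA box letters TATAAA on either strand.
Pax9, chr12:56695221-56695520, plus strand: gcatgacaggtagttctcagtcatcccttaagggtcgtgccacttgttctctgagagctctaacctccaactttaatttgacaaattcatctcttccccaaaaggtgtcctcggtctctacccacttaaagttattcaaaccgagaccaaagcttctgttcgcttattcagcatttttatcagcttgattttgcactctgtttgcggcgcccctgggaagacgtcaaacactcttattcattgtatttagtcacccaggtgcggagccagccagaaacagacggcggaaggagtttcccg
Krt8, chr15:102004293-102004592, minus strand: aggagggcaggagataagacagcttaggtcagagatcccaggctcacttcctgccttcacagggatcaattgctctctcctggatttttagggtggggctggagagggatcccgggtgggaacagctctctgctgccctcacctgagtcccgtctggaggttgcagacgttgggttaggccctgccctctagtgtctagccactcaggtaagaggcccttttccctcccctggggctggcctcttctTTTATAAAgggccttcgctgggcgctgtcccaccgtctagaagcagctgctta
Krt18, chr15:102027966-102028265, plus strand: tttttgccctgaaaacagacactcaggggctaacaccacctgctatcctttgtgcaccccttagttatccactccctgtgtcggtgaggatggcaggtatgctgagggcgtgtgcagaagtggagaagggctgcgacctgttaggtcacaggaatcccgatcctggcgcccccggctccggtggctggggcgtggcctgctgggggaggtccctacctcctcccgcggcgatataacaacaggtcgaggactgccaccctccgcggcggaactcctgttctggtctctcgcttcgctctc
The 2 keratin genes lie side by side on chromosome 15 and are read away from each other. *Krt8* has the TATA letters on both strands in 1 overlapping stretch, at bases 248 to 255 of the window. *Pax9* and *Krt18* have none.

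The 11 windows were also searched on both strands for the letters of a T-box site (GGTGTGA), a Tcf/Lef site (CTTTGAT), a forkhead site (TGTTTAC) and the core of a Gli site (CCACCCA). The T-box letters were in 0 of the 11 windows, against 3.98% of the 32851 mouse windows. The Tcf/Lef letters were in 1 window of *Foxa2* (3.73% of all windows), the forkhead letters in the window of *Foxa1* (3.65%) and the Gli letters in the window of *Pax1* (9.30%). The TATA letters were in the window of *Krt8* and in the same *Foxa2* window (13.6%). These are matches of letters only, and none of the windows of *Pax9*, *Krt18*, *Nkx2-1*, *Epcam* and *Cldn6* held any of the 5 motifs.

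Values are log2 intensities normalized by the authors with the RMA method, so a difference of 1 is a doubling, and they are compared between arrays for 1 gene at a time. RMA values have no true zero and carry no detection call. The targeted gene was read in every array first. *Tbx1* lay between 10.98 and 11.43 in *Tbx1 LOF* and between 11.77 and 11.99 in its controls, and fell by 0.64 (SE 0.09) with limma's adjusted p = 0.00626. With the arrays paired by number the adjusted p was 0.122. It was 0.0504, 0.0512 and 0.0534 without *Tbx1 LOF* array 1, control array 3 or control array 4. In the rescue all 4 arrays lay below all 4 controls, with a log2 fold change of −0.31 (limma adjusted p = 1). *Ctnnb1*, which encodes β-catenin, differed by −0.04 to −0.03 in the LOF comparisons and by −0.05 in the rescue. The probe set is not known to lie in the deleted exons.

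**Figure D1:**
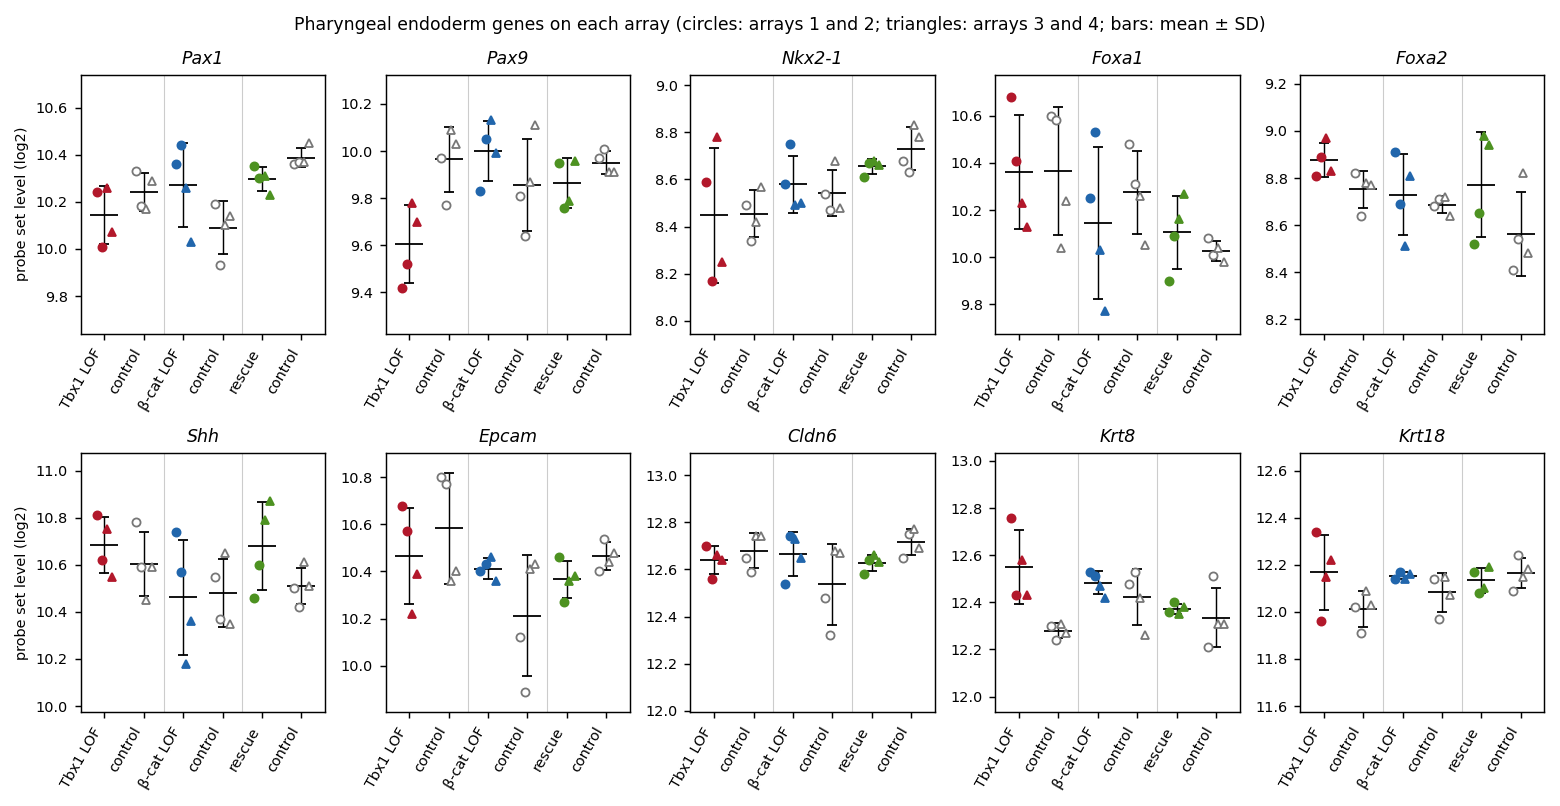
Level of each of the 10 pharyngeal endoderm genes on each of the 24 arrays (y axis, log2 units, the same span in every panel), by group on the x axis, with filled symbols for mutants, open symbols for controls, circles for arrays 1 and 2, triangles for arrays 3 and 4, and bars for the mean ± SD of 4 arrays. The 4 *Tbx1 LOF* arrays lie above all 4 controls for *Krt8* and the 4 rescue arrays below all 4 controls for *Pax1*, while the groups of the other comparisons overlap.

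None of the 10 genes passed an adjusted p of 0.05 in *Tbx1 LOF*, *β-cat LOF* or rescue, and none differed by more than 1.5-fold, where 0.396%, 0.487% and 0.0752% of all genes did. Over all genes the share past the adjusted p was 0.0301% in *Tbx1 LOF* and 0% in both others, where 1140 and 253 genes had an unadjusted p under 0.05. The median log2 fold change of the 10 genes was −0.01 in *Tbx1 LOF*, 0.06 in *β-cat LOF* and −0.05 in the rescue, against −0.01, 0.01 and −0.02 over all genes. The 95% intervals say how much of a difference these arrays leave room for. In all 30 comparisons of a gene with its control the interval stayed within 1.5-fold in either direction, the lowest end being 0.682-fold (*Pax9* in *Tbx1 LOF*) and the highest 1.35-fold (*Epcam* in *β-cat LOF*). That was also so for 98.0%, 97.8% and 98.9% of all genes in the 3 comparisons, so it describes the precision of the arrays rather than these genes. Since the tissue was dissected in bulk, fewer endodermal cells and less RNA per cell cannot be told apart.

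**Figure D2:**
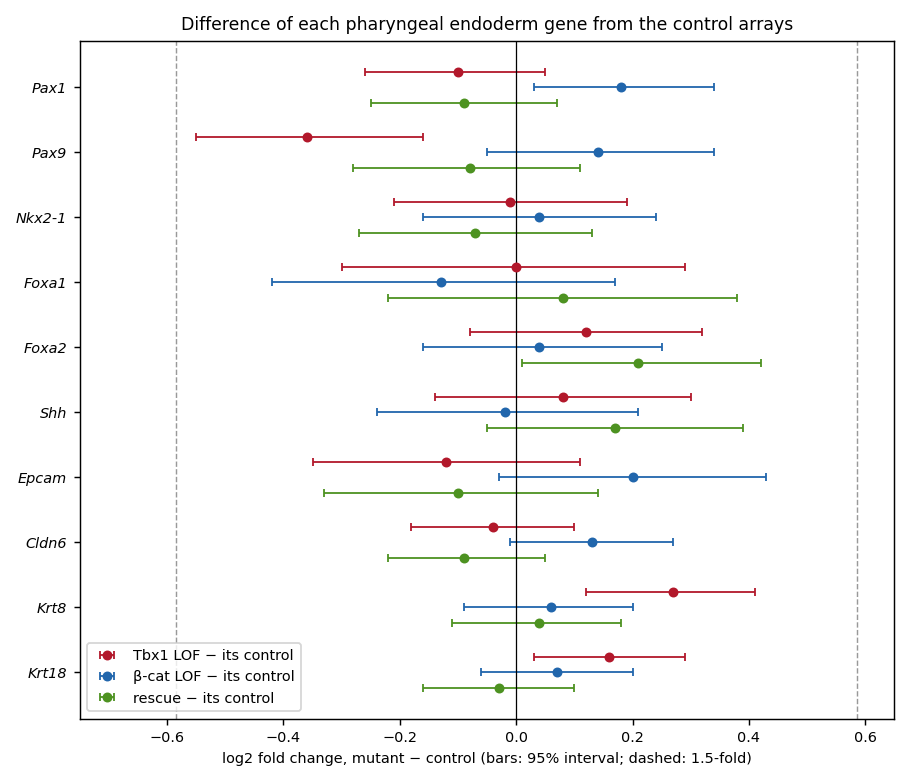
Log2 fold change of each gene (x axis, mutant minus its own control) with its 95% interval from limma, for *Tbx1 LOF* (red), *β-cat LOF* (blue) and rescue (green), with dashed lines at 1.5-fold. All 30 intervals lie between the dashed lines, and those that leave out 0 are *Pax9*, *Krt8* and *Krt18* in *Tbx1 LOF*, *Pax1* in *β-cat LOF* and *Foxa2* in the rescue.

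In *Tbx1 LOF*, 3 of the 10 genes had an unadjusted p under 0.05, where 4.12% of all genes did. *Pax9* was lower and the keratins *Krt8* and *Krt18* were higher, and the other 7 genes lay within 0.12 of their controls. *Krt8* was the only one of the 10 for which the 2 groups of arrays were fully apart, which was so for 2.30% of all genes.

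*Pax9* stood at 9.42, 9.52, 9.78 and 9.70 on the 4 *Tbx1 LOF* arrays and at 9.97, 9.77, 10.09 and 10.03 on the controls. The 2 lowest values were those of mutant arrays 1 and 2, and the groups touched only where mutant array 3 reached control array 2. The log2 fold change was −0.36 (SE 0.09, 95% interval −0.55 to −0.16), which is 0.78-fold, with limma's unadjusted p = 0.000872 and adjusted p = 0.376. The exact permutation test of 4 arrays against 4, two-sided, gave p = 0.0571, where the smallest it can give is 0.0286. The unadjusted p stayed under 0.05 with each of the 24 arrays left out in turn and in the 8 other settings tried, and the adjusted p lay between 0.1 and 0.999 over all of them. It was 0.999 without *Tbx1 LOF* array 1, when the log2 fold change was −0.30. Leaving out an array outside the *Tbx1* experiment changes only the estimate of spread here, not the fold change. The setting with the highest probe set leaves a gene read by 1 probe set as it was.

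*Krt8* stood at 12.76, 12.43, 12.58 and 12.43 in *Tbx1 LOF* and at 12.30, 12.24, 12.31 and 12.27 in the controls. Every mutant array was above every control, with mutant array 1 the highest of the 24. The log2 fold change was 0.27 (SE 0.07, 95% interval 0.12 to 0.41), or 1.2-fold, with limma's unadjusted p = 0.000918 and adjusted p = 0.376, and the exact permutation p was 0.0286. Its partner *Krt18* stood at 12.34, 11.96, 12.15 and 12.22 against 12.02, 11.91, 12.09 and 12.03. Here mutant array 2 lay among the controls, so the groups overlapped. The log2 fold change was 0.16 (SE 0.06) with limma's unadjusted p = 0.0206 and adjusted p = 0.978, and the unadjusted p was 0.118 without mutant array 1, 0.0551 without mutant array 4 and 0.0805 without control array 2.

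The other transcription factors differed little. *Pax1*, the other paired-box factor, had a log2 fold change of −0.10 (95% interval −0.26 to 0.05) in *Tbx1 LOF*. *Nkx2-1* had −0.01 (−0.21 to 0.19), with 2 mutant arrays at 8.17 and 8.25, below the lowest control of 8.34, and 2 at 8.59 and 8.78, above the highest control of 8.57. *Foxa2* had 0.12 (−0.08 to 0.32), with 8.81, 8.89, 8.97 and 8.83 in the mutants against 8.82, 8.64, 8.78 and 8.77. Only 1 control array reached the mutant range of *Foxa2*, and the exact permutation p was 0.0571.

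The ligand and the junction genes of *Tbx1 LOF* likewise overlapped with their controls. *Shh* had a log2 fold change of 0.08 (95% interval −0.14 to 0.30), *Epcam* of −0.12 (−0.35 to 0.11) and *Cldn6* of −0.04 (−0.18 to 0.10). None of these misses of the threshold shows that the level was the same, and the intervals give the sizes that remain possible.

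The array numbers separated some genes more than the genotype did. In the *Tbx1* experiment *Foxa1* was at 10.68, 10.41, 10.60 and 10.58 on mutant and control arrays 1 and 2, and at 10.23, 10.13, 10.04 and 10.24 on arrays 3 and 4. All 4 arrays numbered 1 or 2 were above all 4 numbered 3 or 4, by 0.41 on average, while the mutant and control means were both 10.36. *Epcam* showed the same split, by 0.36. Within arrays 1 and 2 the change of *Foxa1* was −0.04 and within arrays 3 and 4 it was 0.04. Those of *Epcam* were −0.16 and −0.07. *Pax9* differed by −0.40 and −0.32 and *Krt8* by 0.32 and 0.21 in these subsets. In the β-cat experiment *Krt8* was split in the same way, by 0.12. How many of all genes split by array number was not counted. The study describes several batches, but no source used here gives the batch of an array, so these subsets are only array numbers.

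Markers of other tissues moved with the *Tbx1 LOF* group. The mean of 12 heart muscle genes, relative to the mean of the 24 arrays, ran from 0.31 to 0.60 on the mutant arrays and from −0.67 to −0.06 on the controls, and 12 of 12 had a positive log2 fold change (median 0.72). For 12 genes of liver, gut and yolk sac, which are derivatives of the endoderm outside the pharynx and of its extraembryonic counterpart, the range was 0.09 to 0.75 against −0.22 to 0.30, again with 12 of 12 positive (median 0.36). *Afp* and *Ttr*, secreted proteins of liver and yolk sac, had 1.39 and 1.34. The liver list overlapped between the groups and the heart muscle list did not. Other lists lay lower in the mutants. The mean of 5 neural crest genes ran from −0.26 to −0.06 against −0.05 to 0.10, without overlap, with 5 of 5 negative (median −0.18), among them *Tfap2b*, a transcription factor of the crest, at −0.34 (limma unadjusted p = 0.00613, adjusted p = 0.707). The mean of 7 neural tube and forebrain genes ran from −0.31 to 0.29 against 0.03 to 0.29, with 6 of 7 negative (median −0.11). None of these genes passed an adjusted p of 0.05. Of all genes 41.3% had a positive and 58.7% a negative log2 fold change in *Tbx1 LOF*.

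Some of these lists also varied with *Pax9* and *Krt8* among arrays of the same group. With the group means subtracted, *Pax9* ran against the liver, gut and yolk sac mean over the 24 arrays (Pearson's r = −0.78, Spearman's rho = −0.70, r = −0.71 without the 2 arrays farthest out). *Krt8* ran with the heart muscle mean (r = 0.65, rho = 0.70, 0.55 without 2 arrays) and with the mean of 4 mesothelium genes (r = 0.71, rho = 0.50, 0.64). Its partner *Krt18* did not follow them (r = −0.09 with heart muscle and −0.06 with mesothelium). *Pax9* had −0.77 with mesothelium and −0.44 with heart muscle, the latter −0.03 without 2 arrays. *Cldn6* ran against heart muscle (r = −0.68, rho = −0.47, −0.36 without 2 arrays). These are descriptions over arrays that share tissue pieces and amplification. Subtracting group means leaves in any difference between arrays 1 and 2 and arrays 3 and 4. For *Pax9* that difference was −0.23 in the *Tbx1* experiment, −0.19 in the β-cat experiment and 0.03 in the rescue experiment. Its part in these r values was not tested. *Tbx1 LOF* array 1 had the highest *Krt8* and *Krt18*, the lowest *Pax9* and the highest liver list value, 0.75. The part of these tissues in the differences of *Pax9*, *Krt8* and *Krt18* was not tested.

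**Figure D3:**
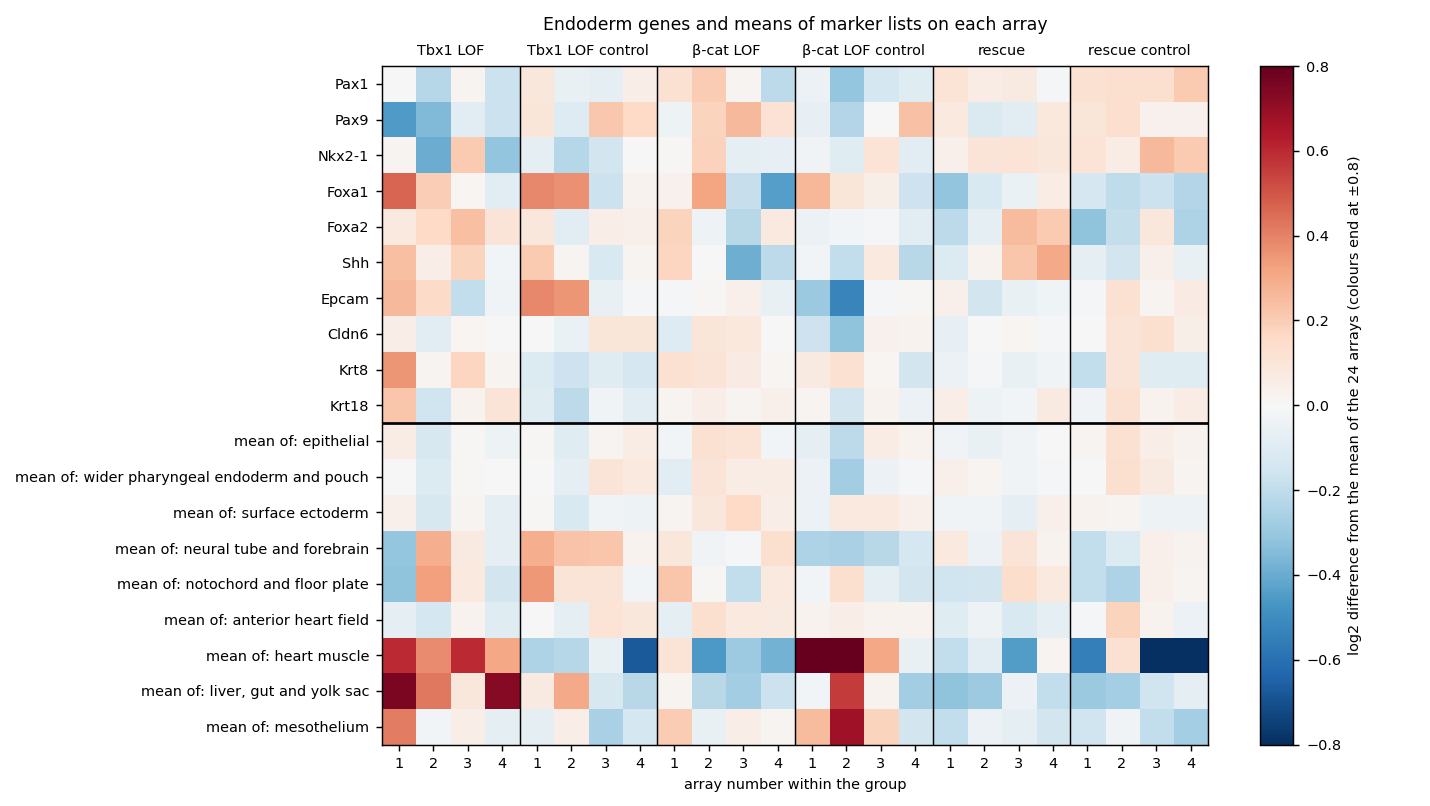
Each row is a gene (upper 10) or the mean of a marker list (lower 9) and each column an array, grouped by genotype, with colour for the log2 difference from the mean of the 24 arrays and colours ending at ±0.8. The heart muscle row is red in all 4 *Tbx1 LOF* arrays (0.31 to 0.60) and past the end of the colours in β-cat control arrays 1 and 2 (0.97 and 1.91), of which array 2 has the lowest *Epcam* and *Cldn6* of all arrays.

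In *β-cat LOF*, 1 of the 10 genes had an unadjusted p under 0.05, against 5.72% of all genes, and for none did the arrays separate (2.84% of all genes). This gene was *Pax1*, with 10.36, 10.44, 10.26 and 10.03 in the mutants and 10.19, 9.93, 10.10 and 10.14 in the controls. Mutant arrays 1 to 3 were above all controls and mutant array 4 was second lowest of the 8. The log2 fold change was 0.18 (SE 0.08, 95% interval 0.03 to 0.34), with limma's unadjusted p = 0.0248 and adjusted p = 0.851, and an exact permutation p of 0.171.

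*Epcam* and *Cldn6* had the next lowest p in *β-cat LOF*. *Epcam* stood at 10.40, 10.43, 10.46 and 10.36 against 10.12, 9.89, 10.41 and 10.43, and *Cldn6* at 12.54, 12.74, 12.73 and 12.65 against 12.48, 12.32, 12.68 and 12.67. The mutant arrays of *Epcam* were close together, and the difference came from control arrays 1 and 2. The log2 fold changes were 0.20 (SE 0.11, 95% interval −0.03 to 0.43) and 0.13 (SE 0.07, −0.01 to 0.27). Within arrays 1 and 2 *Epcam* differed by 0.41 and within arrays 3 and 4 by −0.01, and *Cldn6* by 0.24 and 0.01.

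A single control array bore on most of these values. β-cat control array 2 had the lowest *Pax1*, *Epcam* and *Cldn6* of the 24 arrays, the lowest mean over the 10 genes (−0.17 relative to all arrays) and the highest heart muscle mean, 1.91, where its group began at −0.06. Its liver, gut and yolk sac mean was 0.56 and its mesothelium mean 0.68. Over the groups, the heart muscle mean ran from −0.46 to 0.11 in *β-cat LOF* and from −0.06 to 1.91 in its controls. Of its genes 12 of 12 were negative, where 42.6% of all genes were. The mean of 7 neural tube and forebrain genes ran from −0.03 to 0.13 and from −0.26 to −0.14, with 7 of 7 positive (57.4% of all genes). The part of these tissues in the values of the endoderm genes was not tested. Without β-cat control array 2 the log2 fold changes were 0.13 for *Pax1*, 0.07 for *Pax9*, 0.09 for *Epcam* and 0.06 for *Cldn6*, and 0 of the 10 genes had an unadjusted p under 0.05. Without mutant array 2 that count was 0 as well, and without control array 3 or 4 it was 3 or 4.

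The remaining genes in *β-cat LOF* overlapped with their controls. *Pax9* had 0.14 (95% interval −0.05 to 0.34), *Foxa1* −0.13 (−0.42 to 0.17), *Shh* −0.02 (−0.24 to 0.21) and *Krt8* 0.06 (−0.09 to 0.20). *Nkx2-1*, *Foxa2* and *Krt18* lay between 0.04 and 0.07. For *Foxa1* the interval is the widest of these, and its lowest value of the 24 arrays, 9.77, was on *β-cat LOF* array 4.

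In the rescue, 1 of the 10 genes had an unadjusted p under 0.05, against 1.27% of all genes. *Foxa2* stood at 8.52, 8.65, 8.98 and 8.94 in the rescue and at 8.41, 8.54, 8.82 and 8.48 in the controls. Rescue arrays 3 and 4 were above every control, and arrays 1 and 2 were among them. The log2 fold change was 0.21 (SE 0.10, 95% interval 0.01 to 0.42) with limma's unadjusted p = 0.0384 and adjusted p = 1, and the exact permutation p was 0.2. Leaving out any of rescue arrays 3 and 4 or control arrays 1, 2 and 4 took the unadjusted p to between 0.0689 and 0.165. Over arrays 1 and 2 the difference was 0.11 and over arrays 3 and 4 it was 0.32.

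*Shh*, whose product signals to the neighbouring mesoderm and which *Foxa2* is known to regulate in the midline, stood at 10.46, 10.60, 10.79 and 10.87 in the rescue against 10.50, 10.42, 10.61 and 10.51. The same 2 rescue arrays, 3 and 4, were above every control. Its log2 fold change was 0.17 (SE 0.11, 95% interval −0.05 to 0.39). The mean of 5 notochord and floor plate genes, where both genes are also made, ran from −0.16 to 0.14 in the rescue and from −0.25 to 0.04 in the controls. Of the 5 genes 4 were positive, where 39.1% of all genes were. The part of this tissue was not tested.

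*Pax1* was the gene whose rescue arrays did not overlap with the controls, as was so for 2.97% of all genes. It stood at 10.35, 10.30, 10.31 and 10.23 against 10.36, 10.37, 10.37 and 10.45. All rescue arrays were lower, although array 1 was only 0.01 below the nearest control. The log2 fold change was −0.09 (SE 0.08, 95% interval −0.25 to 0.07) with limma's unadjusted p = 0.246, while the exact permutation p was 0.0286. Fitted on the arrays of the rescue experiment alone, its SE was 0.04 and limma's unadjusted p = 0.0583 (adjusted p = 0.997), and over the alternatives its adjusted p lay between 0.745 and 1. *Pax9* had −0.08 (−0.28 to 0.11), *Epcam* −0.10 (−0.33 to 0.14) and *Cldn6* −0.09 (−0.22 to 0.05). *Krt8* had 0.04 and *Krt18* −0.03, where *Tbx1 LOF* had 0.27 and 0.16.

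Whether the 3 genotypes differed from each other was tested as the difference between their changes. For *Pax9* the change in *Tbx1 LOF* minus that in *β-cat LOF* was −0.50 (SE 0.13, 95% interval −0.77 to −0.23) with limma's unadjusted p = 0.000986 and adjusted p = 0.158, where 0.0502% of all genes passed the adjusted threshold. The adjusted p was 0.0213 without β-cat control array 4 and 0.0354 with a term for arrays 1 and 2 against 3 and 4, and it ran to 0.472 over the alternatives. *Pax1* differed between these genotypes by −0.28 (unadjusted p = 0.0143) and *Krt8* by 0.21 (unadjusted p = 0.0459), both from limma, so 3 of 10 genes were under 0.05 before adjustment and 6.44% of all genes were. *Krt8* was under 0.05 in only 7 of the 24 fits that left out 1 array. Some of the other fits left out a rescue array, which is not part of this difference. In these the value stayed at 0.21 and limma's unadjusted p was 0.0503 to 0.0518.

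Against the rescue, the change in *Tbx1 LOF* differed by −0.28 for *Pax9*, 0.23 for *Krt8* and 0.19 for *Krt18*, with unadjusted p of 0.0490, 0.0297 and 0.0470 from limma and adjusted p of 1 for each. Of all genes 1.71% had an unadjusted p under 0.05 here and 0% passed the adjusted one. Without *Tbx1 LOF* array 1 none of the 3 was under 0.05. Of the 24 fits that left out 1 array, *Pax9* was under 0.05 in 10, *Krt8* in 21 and *Krt18* in 8. Some of the fits over 0.05 left out a β-cat array, which is not part of this difference. In these *Pax9* stayed at −0.28 and *Krt18* at 0.19. The change in *β-cat LOF* minus that in the rescue was 0.27 for *Pax1* and 0.22 for *Cldn6* (unadjusted p = 0.0183 and 0.0311, adjusted p = 0.938 for both), where 4.85% of all genes were under 0.05 and 0% passed after adjustment. Both were over 0.05 without β-cat control array 2 (0.0515 and 0.0968).

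Across all 6 groups the means of a gene spanned 0.16 (*Krt18*) to 0.39 (*Pax9*). For *Pax9* the order ran from *β-cat LOF* through the *Tbx1* controls, the rescue controls, the rescue and the β-cat controls down to *Tbx1 LOF* at 9.61. For *Krt8* it ran from *Tbx1 LOF* at 12.55 through *β-cat LOF*, its controls, the rescue and the rescue controls to the *Tbx1* controls at 12.28. Neighbours in the order overlapped in all of the 5 steps of every gene except *Pax1*, for which the rescue controls stood above the rescue. Groups of different experiments were compared here only as levels, without a test.

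The hedgehog pathway was followed from the ligands to the targets, with lists chosen for this purpose. Of 14 measured genes of 15 for ligand release, reception and transduction, and of 7 measured targets of 8, none passed an adjusted p of 0.05 in any comparison. The median log2 fold change of the first list was −0.03, 0.01 and 0.00 in *Tbx1 LOF*, *β-cat LOF* and rescue, and that of the targets −0.08, −0.12 and 0.07. *Ptch1*, the receptor and itself a target, differed by −0.02, 0.02 and 0.06, with intervals of −0.12 to 0.07, −0.08 to 0.11 and −0.04 to 0.16. *Gli1*, the transcription factor that reads out the pathway, differed by 0.02, 0.05 and 0.12.

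*Disp1*, which releases the ligand from the cell that makes it, was −0.13 in *Tbx1 LOF* and −0.11 in the rescue, with all mutant arrays below all controls in both (limma unadjusted p = 0.0132 and 0.0403, adjusted p = 0.893 and 1). In *β-cat LOF* it was 0.01. The forkhead targets *Foxf2* and *Foxc2* of the mesenchyme had −0.27 and −0.25 in *Tbx1 LOF* (unadjusted p = 0.0304 and 0.0137) and *Foxf1* had 0.21 there, −0.26 in *β-cat LOF* and 0.20 in the rescue.

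**Figure D4:**
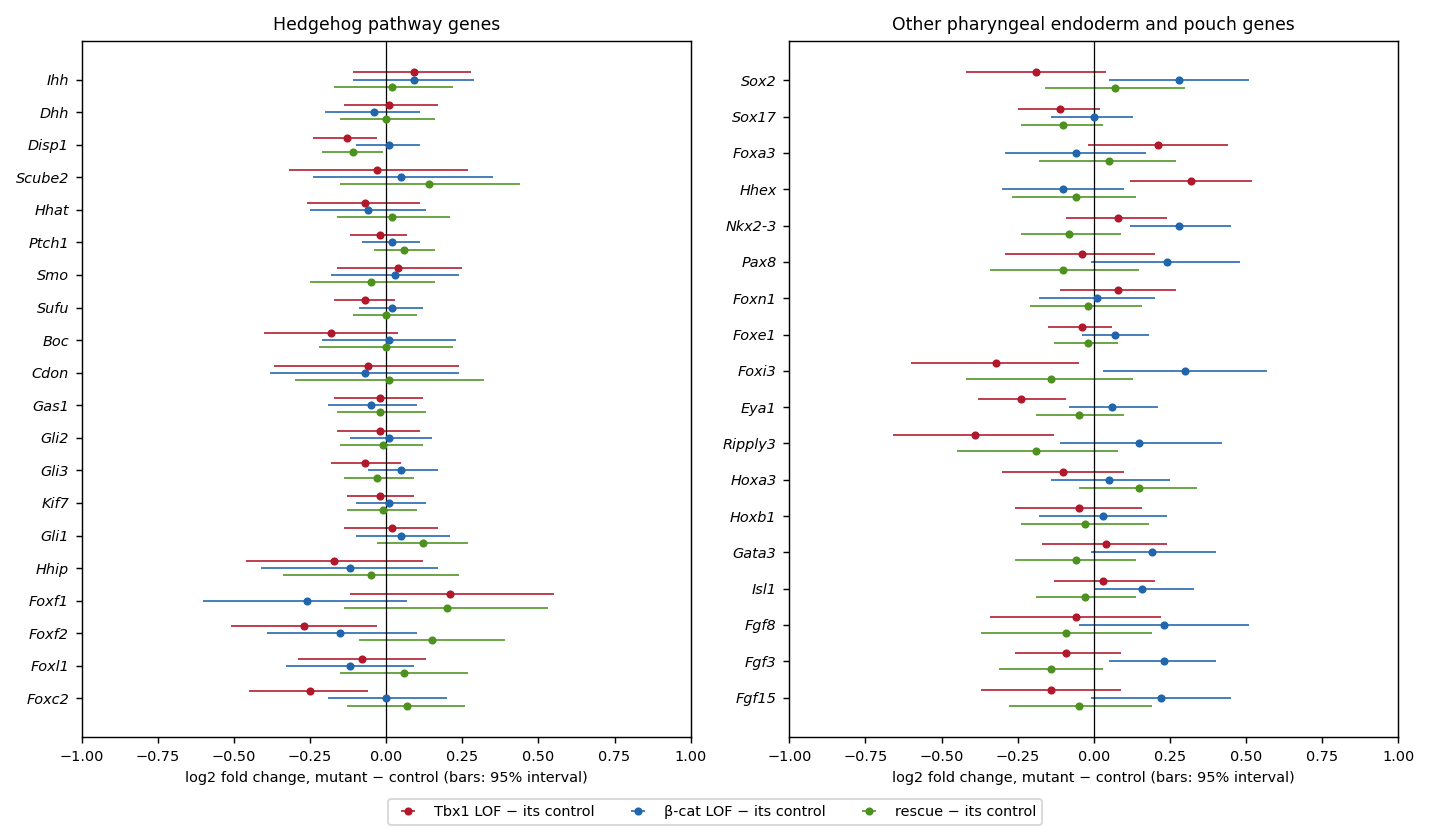
Log2 fold change with its 95% interval (x axis, mutant minus its own control) for the measured hedgehog pathway genes (left) and 18 other genes of pharyngeal endoderm and pouches (right), coloured by comparison. Intervals of the pathway genes are short for *Ptch1* (−0.12 to 0.07 in *Tbx1 LOF*), and at right *Ripply3*, *Foxi3* and *Eya1* lie lowest in *Tbx1 LOF*, at −0.39, −0.32 and −0.24.

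Of 22 other genes of the pharyngeal endoderm and its pouches 18 were measured, and none passed an adjusted p of 0.05. Among them *Isl1* and *Fgf8* were also listed as genes of the anterior heart field, so the counts are not of endoderm alone. In *Tbx1 LOF* 12 of the 18 were negative, where 58.7% of all genes were, with a median of −0.05. At an unadjusted p under 0.05, which 4.12% of all genes had, 3 were lower and 1 was higher. *Ripply3*, a repressor that binds T-box proteins including Tbx1, stood at 10.76, 10.47, 10.96 and 10.99 against 11.04, 11.08, 11.37 and 11.26. All mutant arrays lay below all controls, and the log2 fold change was −0.39 (SE 0.13, limma adjusted p = 0.697). *Eya1*, a transcriptional coactivator of the arches, had −0.24 (SE 0.07, adjusted p = 0.474) and *Foxi3*, a forkhead factor of the pharyngeal epithelia, −0.32 (SE 0.13, adjusted p = 1). *Hhex*, a homeodomain factor of the thyroid and of the liver bud, had 0.32 (SE 0.10, adjusted p = 0.552).

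In *β-cat LOF* 15 of the same 18 were positive, where 57.4% of all genes were, with a median of 0.16. At an unadjusted p under 0.05, which 5.72% of all genes had, 5 were higher and none lower. *Nkx2-3*, a homeodomain factor of the pharyngeal floor, stood at 9.46, 9.44, 9.19 and 9.40 against 9.19, 9.01, 9.04 and 9.13. The groups did not overlap, with mutant array 3 and control array 1 equal to 2 decimals, and the log2 fold change was 0.28 (SE 0.08, limma adjusted p = 0.593). *Sox2* had 0.28, *Foxi3* 0.30 and the ligand *Fgf3* 0.23. *Isl1*, also a gene of the anterior heart field, had 0.16 (limma unadjusted p = 0.0492). The mean of the list was lowest, at −0.28, in β-cat control array 2. In the rescue 15 of 18 were negative, where 60.9% of all genes were, with a median of −0.05 and none under an unadjusted 0.05 (1.27% of all genes).

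General epithelial genes, of which 24 of 25 were measured and which are shared with ectoderm, had medians of −0.01, 0.12 and −0.09. In the rescue 23 of the 24 were negative, where 60.9% of all genes were. Of these 1 (*Cldn4*, −0.16) had an unadjusted p under 0.05, as 1.27% of all genes did. In 4 all rescue arrays lay below all controls, as in 446 of all 19938 genes. In *β-cat LOF* 20 were positive, where 57.4% of all genes were. Among the 20 were *Cdh1*, the adherens junction cadherin, at 0.20 and the protease inhibitor *Spint1* at 0.21. The mean of the list was −0.02, 0.12, 0.11 and −0.02 on the *β-cat LOF* arrays. On their controls it was −0.08, −0.21, 0.06 and 0.03, and control array 2 was the lowest of the 24 arrays. None of the 24 epithelial genes passed an adjusted p of 0.05 in any comparison. The median log2 fold change of 9 surface ectoderm genes was 0.02, 0.08 and −0.01.

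Several of the 10 genes are neighbours on their chromosomes. *Nkx2-1*, *Nkx2-9* and *Pax9* follow each other on chromosome 12 with *Foxa1* a few genes further on, and *Nkx2-4*, *Nkx2-2*, *Pax1* and *Foxa2* do so on chromosome 2. Of 10 genes listed as linked neighbours 8 were measured, and none passed an adjusted p of 0.05. *Krt7* is on this list and on the epithelial list, but is not among the nearest genes on either side of *Krt8* or *Krt18*. *Nkx2-9*, a floor plate homeodomain gene between *Nkx2-1* and *Pax9*, had the largest values, −0.60 in *Tbx1 LOF*, 0.83 in *β-cat LOF* and 0.77 in the rescue. Its level ran from 8.04 to 10.92 within *Tbx1 LOF* alone (SD 1.19). The SE shared by the 3 comparisons was 0.38, against 0.10 for *Nkx2-1* and 0.09 for *Pax9* on either side. *Nkx2-9* lay at 8.89 to 9.88 in *β-cat LOF* against 7.94 to 8.87, and at 9.28 to 9.76 in the rescue against 8.12 to 9.21. In both, all mutant arrays were above all controls, as in 410 and 147 of all 19938 genes. Limma's unadjusted p was 0.0389 and 0.0531.

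Within groups the 10 genes did not vary as 1 block. With group means subtracted, the 45 pairs had a median Pearson's r of 0.23 over the 24 arrays, from −0.52 (*Pax9* with *Foxa1*) to 0.67 (*Pax1* with *Nkx2-1*), and 31 pairs were positive. *Foxa1* with *Shh* had 0.65 and *Foxa2* with *Shh* 0.64. The partner keratins had 0.48, which was 0.21 without the 2 arrays farthest out. *Foxa2* also ran with the mean of 5 notochord and floor plate genes (r = 0.64, rho = 0.68) and *Shh* had r = 0.42 and rho = 0.46 with it. The pairs share arrays, tissue pieces and amplification, and no test was made. The r values also hold any difference between arrays 1 and 2 and arrays 3 and 4. For *Foxa1* that difference was 0.41, 0.37 and −0.09 in the *Tbx1*, β-cat and rescue experiments. For *Pax9* it was −0.23, −0.19 and 0.03.

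**Figure D5:**
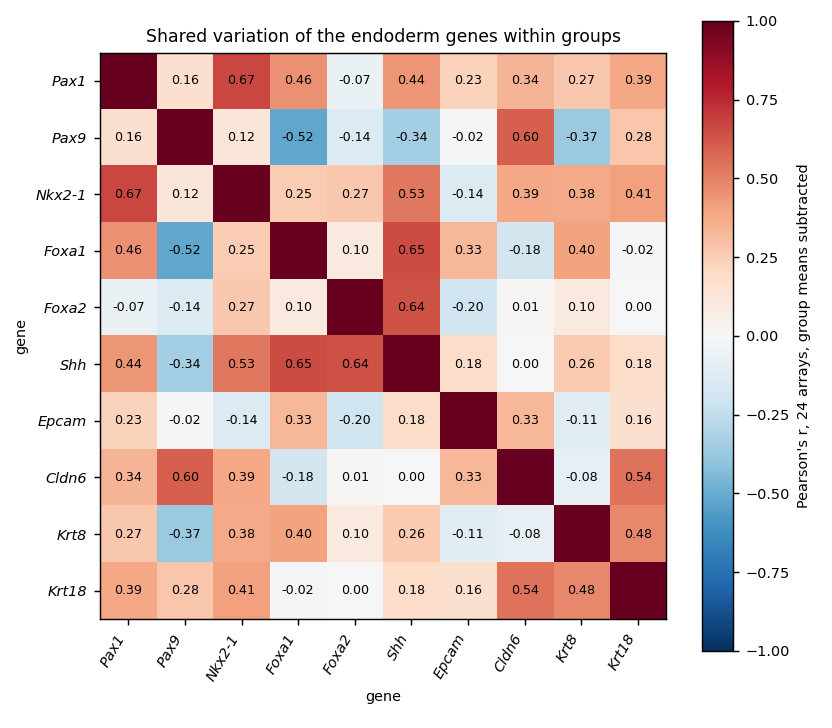
Pearson's r between each pair of the 10 genes over the 24 arrays after the mean of each group was subtracted, with red for positive and blue for negative values. The highest value is that of *Pax1* with *Nkx2-1* (0.67) and the lowest that of *Pax9* with *Foxa1* (−0.52).

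The genes whose pattern was most like the mean of the 10, over the 24 arrays with group means subtracted, were *Aar2*, a splicing factor (r = 0.858), *Tbc1d10a*, a Rab GTPase-activating protein (0.847), *Zfp523*, a zinc finger gene (0.801), *Elf3*, an Ets factor of epithelia (0.780), and *Sgms2*, a sphingomyelin synthase (0.775). *Elf3* is on the epithelial list and differed by 0.01, −0.03 and −0.07 in the 3 comparisons.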

How the data were processed

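RNA of pooled, dissected AHF tissue was amplified from 100 ng and hybridized to Affymetrix Mouse Gene ST 1.0 arrays. The authors turned intensities into the deposited log2 values by RMA (oligo package). Not given in the sources used here are the oligo version, the genome build and the array batches, nor is it stated whether the values include the batch correction by ComBat that the methods describe, so batch could not be blocked. *Tbx1 GOF* and *β-cat GOF* arrays were not analysed here.

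Of 35556 probe sets, 21789 with 1 gene symbol were kept (1621 had several and 12146 none) and averaged per gene, giving 19938 genes, of which 19855 matched RefSeq. Array medians lay between 8.00 and 8.14. Precision is limited by the number of arrays. No filter on low values was applied in the main analysis. In 1 fit of limma 3.58.1 (R 4.3.3) with 6 group means over 24 arrays, each mutant was compared with its own control, and the changes with each other, with Benjamini-Hochberg adjustment over all genes. The fit was tested on simulated data with independent normal noise and no batches. That test does not cover differences shared between arrays, such as those by array number. Single genes were also compared by exact permutation. Nothing in the labels says that arrays of a group came from separate litters, so p-values measure only the spread between these arrays. Figures were drawn with matplotlib in Python.

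The genes, lists and tests were chosen with earlier results of these data known. Named were all 10 genes, *Tbx1*, *Ctnnb1*, the 5 genes most like the mean of the 10, and of each list up to 4 genes per comparison at an unadjusted p under 0.05, by size, or the largest difference. *Ptch1*, *Gli1* and *Foxf1* in *Tbx1 LOF* and all values given for context in other comparisons were chosen after their values were seen. Same-numbered mutant and control arrays deviated together in the *Tbx1* experiment (r = 0.157 to 0.494), although only 1 of 4 arrays correlated best with its own number. In the β-cat experiment r ran from 0.089 to 0.479, and arrays 3 and 4 correlated best with their own numbers. In the rescue experiment r ran from −0.064 to 0.256, and array 3 did so. The replicate block paired the arrays by number in every experiment, a pairing found in the data and not stated by the labels. Alternatives were the replicate block, each experiment fitted on its own arrays, the highest probe set, dim genes left out (9 of the 10 genes passed, *Nkx2-1* not), median centring, trend and robust moderation, array quality weights, a term for arrays 1 and 2 against 3 and 4, and each array left out.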

Additional observations from a re-analysis of the deposited data

Results flagged for a closer look

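*Epcam* and *Cldn6* stood out because every *β-cat LOF* array lay above the mean of its controls and every rescue array below the mean of its own. The change in *β-cat LOF* minus that in the rescue was 0.29 for *Epcam* (limma unadjusted p = 0.0748, adjusted p = 0.938) and 0.22 for *Cldn6* (unadjusted p = 0.0311, adjusted p = 0.938), so neither difference passed after adjustment. Without β-cat control array 2, which was lowest of the 24 arrays in both genes, the difference for *Cldn6* was 0.14. In 60 groups of 4 arrays, 6 for each of the 10 genes, no array stood apart from the other 3 by Dixon's criterion, which chance meets in about 5% of groups.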

How the results depend on the processing

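No gene of the 10 passed the adjusted threshold against its control in any setting run. The replicate block, which pairs arrays by number, changed no call of these genes after adjustment. With it 2 genes had an unadjusted p under 0.05 in *β-cat LOF* in place of 1, and the call of *Tbx1* in *Tbx1 LOF* was lost (−0.64, adjusted p = 0.122), as with each experiment fitted on its own arrays (−0.64, 0.185). Of all genes it left 0 rather than 6 past the threshold in *Tbx1 LOF*, 2 rather than 10 in the difference of *Tbx1 LOF* and *β-cat LOF*, and gave 2 in *β-cat LOF* and 2 in its difference from the rescue. Array quality weights moved the median of the 10 in *Tbx1 LOF* from −0.01 to 0.07 and turned small values: *Foxa1* to 0.14, *Epcam* to 0.05 and *Ctnnb1* to 0.03 there, and *Foxa1* to 0.04, *Shh* to 0.04 and *Ctnnb1* to 0.01 in *β-cat LOF*. The count under an unadjusted 0.05 in *β-cat LOF* was 0 on own arrays, 2 with trend and robust moderation and 3 with the term for arrays 1 and 2. In the rescue, 1 in the main analysis, it was 0 on own arrays and 3 with weights. In the differences it was 5 with the array term, in place of 3, for *Tbx1 LOF* and *β-cat LOF*, where 1 gene, *Pax9*, also passed after adjustment, 1 with median centring, in place of 3, for *Tbx1 LOF* and rescue, and 1 with weights and 4 with the array term, in place of 2, for *β-cat LOF* and rescue. With single arrays left out these counts ran from 0 to 4 in *β-cat LOF*, 0 to 2 in the rescue, 2 to 5, 0 to 3 and 0 to 4 in the 3 differences, and 0 to 1 for the adjusted count of the first, and the median in *Tbx1 LOF* from −0.06 to 0.06. Small values changed sign: in *Tbx1 LOF* *Foxa1* (−0.11 to 0.07), *Nkx2-1* (−0.12 to 0.08) and *Ctnnb1* (−0.07 to 0.01), in *β-cat LOF* *Shh* (−0.11 to 0.08), *Foxa2* (−0.02 to 0.12), *Nkx2-1* (−0.02 to 0.08) and *Ctnnb1* (−0.06 to 0.00), and *Krt8* in the rescue (−0.01 to 0.09). The causes were not tested. The 4 arrays a group limit what could be seen, and the 95% intervals in the report give the sizes that remain possible.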
